A study of Mus musculus with 24 samples.

Results

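Kidney gene expression 2 weeks after the relief of a 7-day ureteral obstruction (R2W) was compared with that of sham-operated kidneys by bulk RNA sequencing of polyA-selected RNA. The comparison takes the 4 libraries titled R2W and the 4 titled sham, which are 8 of the 24 libraries of the series, and every gene of the deposited table (14785). Each library was made from a separate male mouse of strain C57/BL6, labelled 8 weeks of age. Sham mice had sham surgery, and the time from that surgery to tissue collection is not given in the sources used here. In R2W mice 1 ureter was ligated for 7 days (unilateral ureteral obstruction, UUO), then reimplanted in a second operation, and the kidney was collected 2 weeks later. The R2W kidneys therefore carry both operations, which sham kidneys do not, and 4 animals of each group were taken from a larger group in a way the labels do not describe. Kidneys collected at 7 days of UUO (UUO7) and after 1 or 4 weeks of reversal (R1W, R4W) serve below as reference points. Each of these groups has 4 animals. The 4 kidneys collected at 2 days of obstruction (UUO2) were part of the fit to all 24 libraries. Their values appear below in the spread between animals and in the plot of library positions. The labels give the tissue as kidney, and how much of each library came from cortex or medulla is not given.

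Ligating a ureter stops urine flow, dilates the tubules and injures the nephron, and the interstitium fills with fibroblasts and leukocytes. Proximal tubule cells, which reclaim most filtered solutes and burn fatty acids to do so, lose transporters and mitochondrial enzymes and switch on injury genes such as Havcr1 (kidney injury molecule 1) and Lcn2 (neutrophil gelatinase-associated lipocalin). After the flow is restored, some tubules recover their differentiated state while inflammation and scar matrix can persist, and the R2W kidneys are a middle point of that course.

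Values are FPKM, fragments counted per length of transcript and per size of the library, a level that is comparable between genes because it is given per length. Gene coordinates are those of the table, on mm10 per the submitters' processing notes. The 8 libraries had an implied depth of 25200000 to 35300000 fragments. Pearson's r across genes on log2(FPKM + 1) had a median of 0.982 within sham, 0.975 within R2W and 0.918 between the groups. Sham animal 2 stood apart: it had markers of fat and of urothelium (Adipoq 12.5 FPKM against at most 0.03 in the other sham animals, Upk3a 10.2 against at most 0.81), and list counts that moved without it are given below. The median gene was 0.32 higher in R2W on the log2 scale as deposited and -0.00 after each library was rescaled by median ratios. A gene was therefore called higher or lower in R2W only where limma's test gave a Benjamini-Hochberg adjusted p under 0.05 in the same direction on both scalings. Log2 fold changes below are R2W minus sham on log2(FPKM + 1) as deposited, which understates the change of low genes, and genes named below as past the threshold on 1 scaling alone have both values. The rescaled values alone add calls of lower genes and the deposited values alone calls of higher genes, so a gene that was not called on both can still be past the threshold on 1. In bulk tissue, fewer cells of a type and less RNA per cell cannot be told apart.

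Expression still differed widely from sham at 2 weeks. By limma, 4591 of 14785 genes (31.1%) were called higher in R2W than in sham and 1909 (12.9%) lower, or 44% in either direction. On the deposited values alone the calls were 8295 higher (56.1%) and 1909 lower (12.9%), on the rescaled values alone 4591 higher (31.1%) and 4812 lower (32.5%), so the balance of directions depends on the scaling, and 227 genes were called in opposite directions. At a log2 fold change of at least 1 on both scalings, 1563 genes were called higher and 202 lower. The 4 R2W libraries lay entirely above the 4 sham libraries on both scalings for 29.9% of genes and entirely below for 12%. In the authors' deposited table, 4468 genes were higher and 5163 lower in R2W at an adjusted p under 0.05. Of the 6500 genes called here, 6058 (93.2%) are in the same direction there, or 62.9% of the authors' calls, and 3 are in the opposite one.

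The 12 largest rises, among called genes that averaged 10 FPKM or more and whose groups did not overlap, were Lcn2, Mmp7, Lyz2, Ctss, C3, Timp1, Col3a1, Mgp, C1qa, Vcam1, Ccl8 and Ccl6. They encode products of injured tubules (Lcn2, Vcam1, Mmp7), matrix proteins and a protease inhibitor (Col3a1, Mgp, Timp1), and macrophage, complement and chemokine proteins. Their log2 fold changes ran from 4.42 to 5.74. Mmp7, a matrix metalloproteinase of damaged epithelium, was near or at 0 in sham (0.07, 0.17, 0 and 0 FPKM) and stood at 54.1, 17.7, 122 and 31.1 FPKM in R2W animals 1 to 4. The 12 largest falls were Pvalb, Slco1a1, Cyp4b1, Slc6a19, Kcnt1, Cyp24a1, Cyp4a12a, Cyp2d12, Dnase1, Pcx, Ugt1a7c and Hpd, from -1.48 to -2.22. Transporters (Slco1a1, Slc6a19), cytochrome P450 enzymes (Cyp4b1, Cyp24a1, Cyp4a12a, Cyp2d12) and other metabolic enzymes (Pcx, Ugt1a7c, Hpd) make up most of them. The falls were thus smaller on this scale than the rises.

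**Figure D1:**
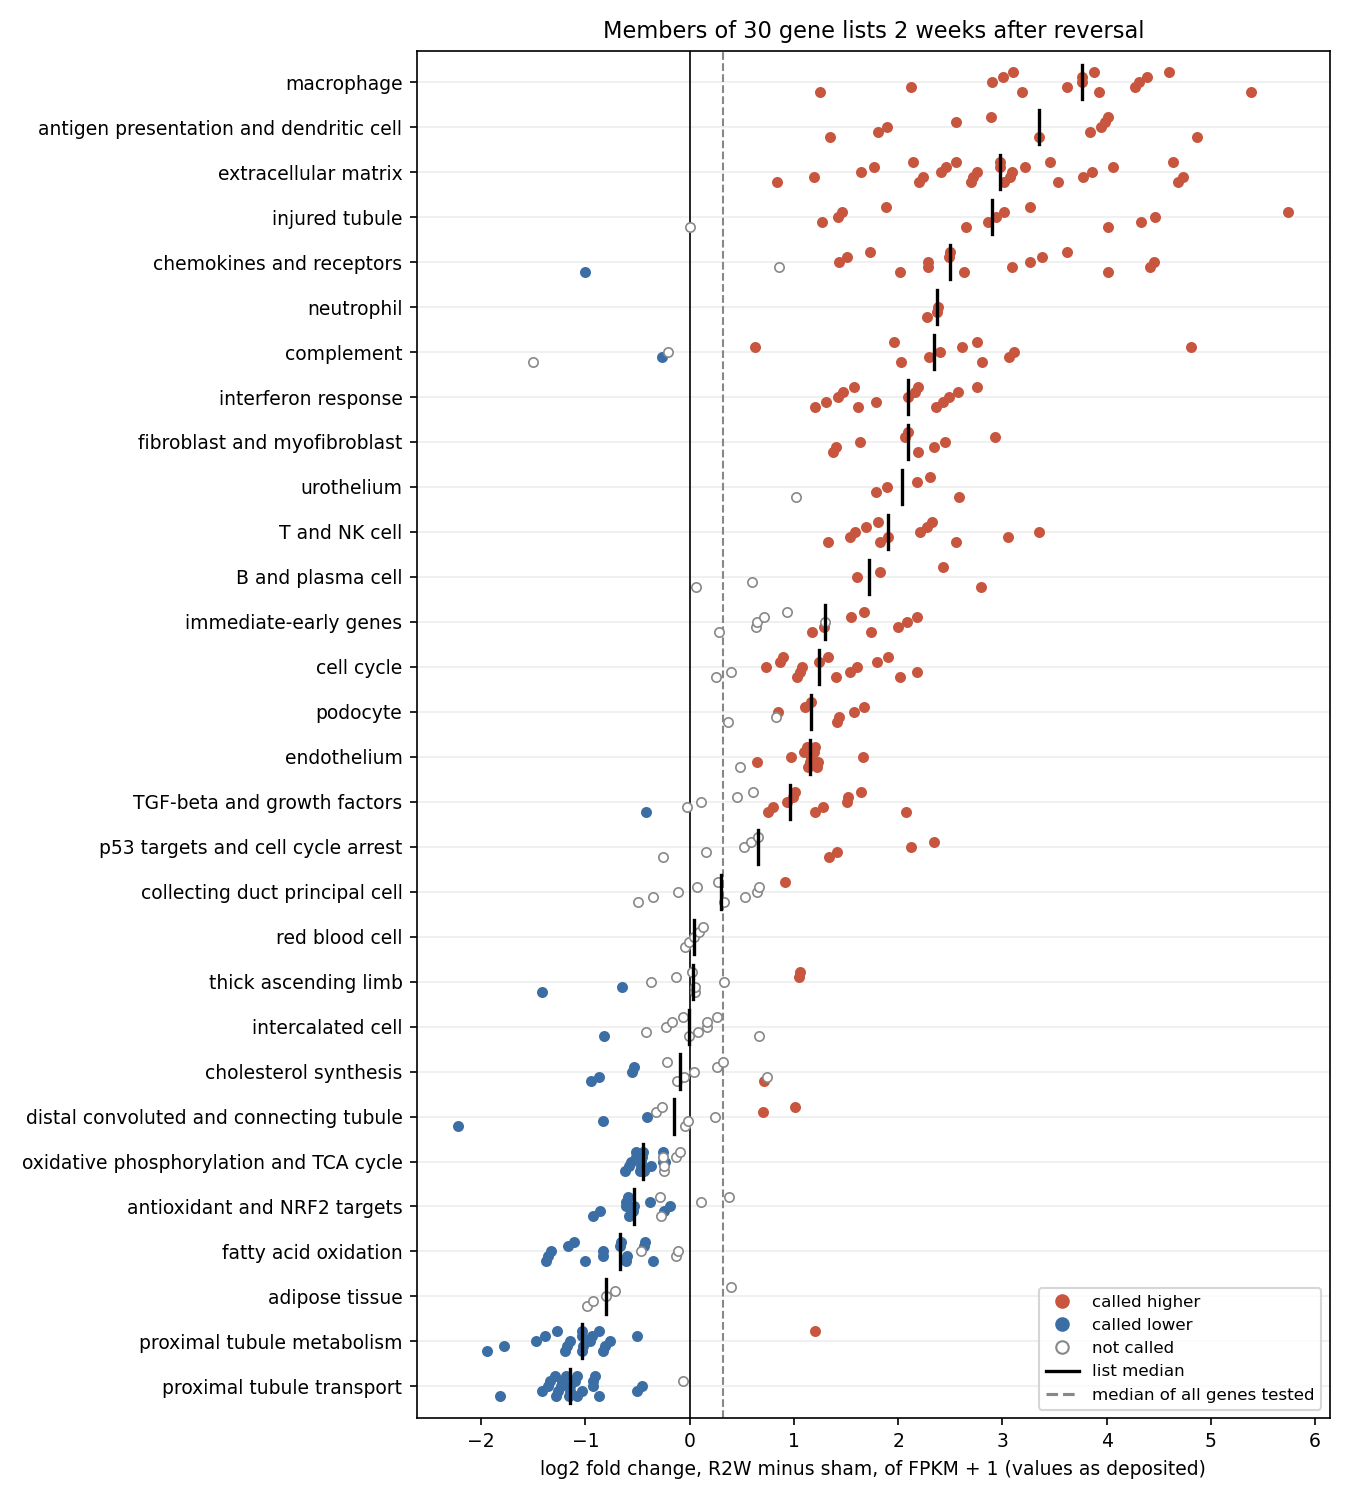
Log2 fold change of FPKM + 1, R2W minus sham, of every measured member of 30 gene lists, with lists ordered by their median (black bar). Filled points were called by limma on both scalings (red higher, blue lower), open points were not, and the dashed line is the median of all genes tested at 0.32. Macrophage genes are at the top with a median of 3.76 and proximal tubule transport genes at the bottom with -1.14.

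Of 412 genes on 30 lists of kidney cell types and pathways, 390 had a row, of which 207 were called higher and 96 lower, where 31.1% and 12.9% of all genes were. The deposited table holds only genes with a mean of at least 1 over the 24 libraries. A gene under 1 FPKM in sham thus has a row only through groups where it is higher, which favours calls of higher. The injured tubule list gathers genes that tubule cells express after damage. Of its 14 members, 13 were called higher, with a median log2 fold change of 2.90 over the list against 0.32 over all genes. Havcr1, a phosphatidylserine receptor that lets tubule cells engulf debris (chr11:46735080-46779578, plus strand), read 1.75, 2.35, 1.49 and 2.06 FPKM in sham animals 1 to 4 and 38.9, 42.3, 109 and 59.0 FPKM in R2W animals 1 to 4. Every R2W animal was above every sham animal, and R2W animal 3 was the highest. The log2 fold change was 4.33 ± 0.33 (SE) (limma adjusted p = 1.1e-09). Lcn2, an iron-carrier binding protein used as a urine marker of injury (chr2:32384633-32388252, minus strand), went from 2.78, 16.1, 2.15 and 4.64 FPKM in sham to 477, 158, 576 and 215 FPKM in R2W. R2W animals 1 and 3 were above animals 2 and 4, and sham animal 2 was the highest of its group. The log2 fold change of Lcn2 was 5.74 ± 0.40 (SE) (limma adjusted p = 5.1e-10).

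Spp1, which encodes the secreted phosphoprotein osteopontin, had 385, 719, 389 and 428 FPKM in sham and 4017, 3654, 6758 and 4036 FPKM in R2W. R2W animal 3 stood above the 3 others, as did sham animal 2 within its group. Vcam1, a leukocyte adhesion molecule that marks proximal tubules in failed repair, rose from 1.75 ± 0.205 to 60.6 ± 14.2 FPKM (SD, n = 4), a log2 fold change of 4.46 ± 0.23 (SE) (limma adjusted p = 4.9e-11). The member that was not called was Itgb6, a subunit of the integrin that activates latent TGF-beta, with 22.5 ± 1.43 FPKM in sham and 22.7 ± 2.68 in R2W, lower by the rescaled values alone (0.01 as deposited, -0.37 rescaled). Against UUO7, 9 of the 14 were called lower in R2W, where 14% of all genes were called lower and 10.8% higher, and no member was called higher. Havcr1 shows the distance still to sham: 473 ± 42.6 FPKM at UUO7, 125 ± 27.2 in R1W, 62.2 ± 32.2 in R2W and 17.2 ± 7.08 in R4W.

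**Figure D2:**
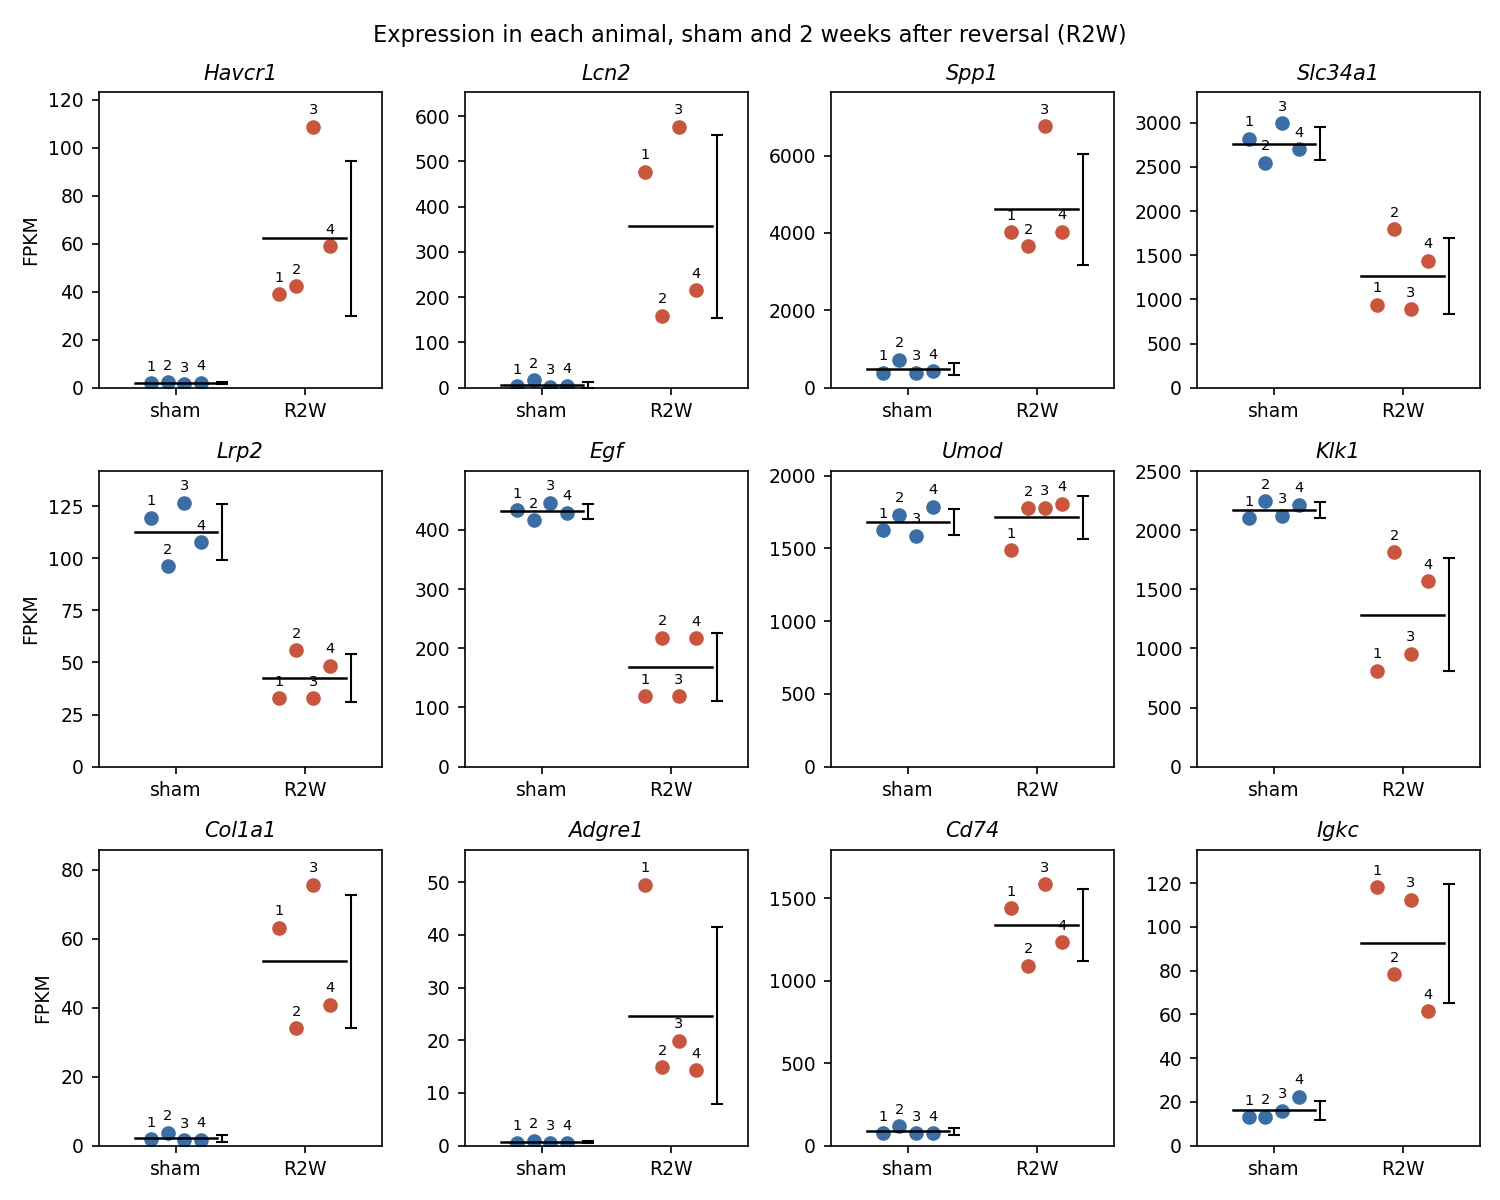
FPKM of 12 genes in each of the 4 sham (blue) and 4 R2W (red) animals, numbered by replicate, with the group mean (line) and SD (bar) on axes that start at 0. The groups do not overlap except for Umod, and R2W animals 2 and 4 lie nearer to sham than 1 and 3 for Slc34a1, Lrp2, Egf, Klk1, Lcn2 and Col1a1.

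Transporters of the proximal tubule were below sham. Of 24 members, 23 were called lower and none higher, with a median log2 fold change of -1.14. Slc34a1, the sodium-phosphate cotransporter of the brush border (chr13:55398187-55415592, plus strand), read 2819, 2548, 2992 and 2698 FPKM in sham animals 1 to 4 and 940.3, 1795, 887 and 1438 FPKM in R2W animals 1 to 4. The groups did not overlap, and R2W animals 1 and 3 were the lowest. Its log2 fold change was -1.19 ± 0.21 (SE) (limma adjusted p = 5.1e-05). The glucose transporter of the early proximal tubule, Slc5a2 (SGLT2), had 308, 291, 336 and 302 FPKM in sham and 134, 198, 103 and 187 FPKM in R2W. Lrp2 (megalin), the endocytic receptor that retrieves filtered protein, fell from 119.5, 96.3, 127 and 108 to 32.9, 56.0, 32.7 and 48.5 FPKM. For both genes the lowest animals were again R2W 1 and 3. Slc7a13, an amino acid transporter of the last proximal segment, stood at 439, 296, 431 and 419.6 FPKM in sham and 119, 236, 137 and 195 FPKM in R2W. Here sham animal 2 was the lowest of its group, still above every R2W animal.

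The largest fall on the list was that of Slc6a19, the main neutral amino acid transporter, with a log2 fold change of -1.82 ± 0.25 (SE) (limma adjusted p = 2.6e-06). Slc5a12, a lactate transporter, fell from 40.4 ± 9.14 to 15.2 ± 3.95 FPKM (SD, n = 4). The member that was not called was the sulfate transporter Slc13a1, with 95.8 ± 3.01 FPKM in sham and 92.5 ± 16.3 in R2W, which was lower by the rescaled values alone (-0.07 as deposited, -0.46 rescaled). It had been higher at UUO7 (229 ± 21.9 FPKM). Of the 24 transport genes, 16 were called higher in R2W than at UUO7 and 1, Slc13a1, lower, so most lay between UUO7 and sham. Slc34a1, for example, was at 651 ± 69.9 FPKM at UUO7 and 1265 ± 432 in R2W.

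Proximal tubule metabolism moved in the same direction as transport. Of 20 enzymes and related genes, 19 were called lower and 1 higher, with a median of -1.03. Cyp4b1, a cytochrome P450 abundant in male mouse kidney, read 1513, 1347, 1671 and 1590.4 FPKM in sham and 287, 690.4, 267 and 462 FPKM in R2W, and the R2W animals were all below every sham animal. Hpd, an enzyme of tyrosine breakdown, fell from 40.1 ± 3.20 to 14.7 ± 6.84 FPKM (SD, n = 4). Both arms of local vitamin D metabolism were on the list. Cyp24a1, which inactivates vitamin D, fell by 1.78 on the log2 scale (limma adjusted p = 2.3e-05), while Cyp27b1, which makes the active hormone, rose from 0.89 ± 0.339 to 3.32 ± 0.401 FPKM (log2 fold change 1.203 ± 0.20 (SE), limma adjusted p = 3e-05). Kl encodes klotho, the co-receptor through which FGF23 regulates phosphate and vitamin D. It read 131, 111, 137 and 118 FPKM in sham and 57.4, 90.1, 57.6 and 87.7 FPKM in R2W, with R2W animals 1 and 3 the lowest and no overlap between the groups (log2 fold change -0.78 ± 0.18 (SE), limma adjusted p = 0.00076). Without sham animal 2, 17 in place of 19 metabolism genes were called lower.

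Genes of fatty acid oxidation, the main fuel of the proximal tubule, followed: 15 of 18 were called lower and none higher, with a median of -0.66. On the rescaled values alone 17 were lower, with a median of -1.05. Ehhadh, a peroxisomal enzyme, fell from 339.7 ± 33.5 to 141 ± 65.0 FPKM. Ppara, the nuclear receptor that drives these genes, fell from 9.92 ± 2.51 to 3.30 ± 0.649 FPKM. Its coactivator Ppargc1a was not called (9.03 ± 0.944 and 8.18 ± 0.979 FPKM), nor was Hadha, of the mitochondrial trifunctional protein. Both were lower by the rescaled values alone (Ppargc1a -0.13 as deposited, -0.48 rescaled, Hadha -0.11 as deposited, -0.50 rescaled). Ppargc1a is named here after its values were seen. Of the 20 nuclear genes of oxidative phosphorylation and the tricarboxylic acid cycle, 15 were called lower (13 without sham animal 2) and none higher, with a median of -0.44. On the rescaled values alone all 20 were lower, with a median of -0.84. Sdhb, a subunit of succinate dehydrogenase, fell by 0.58 on the log2 scale. Atp5b, a subunit of ATP synthase, read 2479 ± 54.9 FPKM in sham and 1685 ± 235 in R2W. Among antioxidant genes, 11 of 15 were called lower and none higher, led by Gpx3, the secreted glutathione peroxidase made by the proximal tubule (10976 ± 741 FPKM in sham, 5945 ± 1578 in R2W), and catalase (Cat, -0.86). Gpx4 and Srxn1 were lower by the rescaled values alone (Gpx4 -0.29 as deposited, -0.68 rescaled, Srxn1 0.11 as deposited, -0.26 rescaled). Cholesterol synthesis was mixed, with 4 of 12 called lower (Cyp51 by 0.95 and Idi1 by 0.87 on the log2 scale among them) and 1 higher. On the rescaled values alone 7 were lower and 1 higher.

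In more distal segments calls on both scalings were few or went both ways, and the counts depended on the scaling. The thick ascending limb, which dilutes the urine and secretes uromodulin, had 2 of 10 members called lower and 2 higher, and a median of 0.04 (-0.35 rescaled, where 3 were lower and 2 higher). Umod, the uromodulin gene, read 1625, 1731, 1587 and 1785 FPKM in sham and 1488, 1776, 1779.6 and 1807 FPKM in R2W. The groups overlapped and the log2 fold change was 0.02 ± 0.16 (SE) (limma adjusted p = 0.91), or -0.37 rescaled, where the adjusted p was 0.068. Egf, the epidermal growth factor made in the same segment (chr3:129677565-129755316, minus strand), read 433, 416, 446 and 429 FPKM in sham and 119, 218, 119 and 217 FPKM in R2W. R2W animals 1 and 3 were at nearly the same low level, and the log2 fold change was -1.42 ± 0.40 (SE) (limma adjusted p = 0.0035). At UUO7, Umod stood at 1133 ± 144 and Egf at 15.3 ± 1.78 FPKM. Cldn10 fell as well, and Cldn16 and Cldn19, whose claudins form the paracellular pore for calcium and magnesium, rose by 1.05 and 1.05. Slc12a1, the sodium-potassium-chloride cotransporter, had 235 ± 35.0 and 181 ± 22.7 FPKM without overlap, and was lower by the rescaled values alone (-0.37 as deposited, -0.76 rescaled).

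Of the 10 genes of the distal convoluted and connecting tubule, 3 were called lower and 2 higher, with a median of -0.15. On the rescaled values alone 6 were lower and 2 higher, with a median of -0.54. Pvalb, a calcium buffer of the early distal convoluted tubule, read 37.1, 37.3, 33.8 and 32.3 FPKM in sham and 4.93, 16.6, 4.2 and 5.65 FPKM in R2W. It had the largest fall of all genes named (-2.22 ± 0.29 (SE), limma adjusted p = 1.7e-06), was listed at 0.01 FPKM on average at UUO7, and R2W animal 2 was the highest of its group. Klk1, the tissue kallikrein of the connecting tubule, read 2099, 2243, 2122 and 2213 FPKM in sham and 811, 1811, 954 and 1568 FPKM in R2W, in which animals 1 and 3 were lowest. Its call (log2 fold change -0.83) rests on those 2 animals: without R2W animal 1 or 3 it was -0.64 or -0.71 and not called, and the list's count of lower calls dropped to 1 in either case. Slc12a3, the thiazide-sensitive cotransporter, was lower by the rescaled values alone (-0.26 as deposited, -0.65 rescaled), and Calb1, the calcium-binding protein calbindin, was not called on either scaling. Trpm6 and Trpv5, channels for magnesium and calcium uptake, were called higher, and the call of Trpv5 was lost without R2W animal 2, 3 or 4 or sham animal 4, and with a pseudocount of 10. S100g, a calcium-binding protein, was called lower, a call lost without R2W animal 1 or 3 or sham animal 1.

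In the collecting duct, 1 of 10 principal cell genes was called (the transcription factor gene Gata3, higher), and 1 of 11 intercalated cell genes (Slc4a1, the chloride-bicarbonate exchanger, lower). On the deposited values alone 4 principal cell genes and 1 intercalated cell gene were higher, and on the rescaled values alone 1 principal cell gene and 4 intercalated cell genes were lower (list medians 0.30 and -0.00 as deposited, -0.06 and -0.37 rescaled). The call of Gata3 was lost without R2W animal 1 or 3 or sham animal 1, 3 or 4, in a fit on R2W and sham alone, and with a pseudocount of 10. The call of Slc4a1 was lost without R2W animal 1, 2 or 3 or sham animal 2, 3 or 4, with R4W animal 2 placed in R2W, and with a pseudocount of 0.1. Aqp2, the vasopressin-regulated water channel, read 159, 529, 143 and 216 FPKM in sham and 348, 169.8, 178 and 181 FPKM in R2W. A single animal was high in each group, sham 2 and R2W 1, and the log2 fold change was -0.11 with all animals and 0.30 without sham 2. The vacuolar proton pump subunit gene Atp6v1b1 (67.1 ± 0.948 and 82.4 ± 19.4 FPKM) and the ammonia transporter gene Rhcg (62.8 ± 1.99 and 67.2 ± 13.5 FPKM) were not called. Genes that were not called are not thereby shown to equal sham. Against UUO7, 8 of 10 thick ascending limb genes, 9 of 10 distal convoluted and connecting tubule genes, 5 of 10 principal cell genes and 11 of 11 intercalated cell genes were called higher in R2W, with none lower.

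Podocyte genes were above sham. These cells form the filtration slits of the glomerulus, and 7 of 9 of their genes were called higher and none lower, with a median of 1.17 (0.79 rescaled). Synpo, an actin-associated protein of the foot process, rose from 8.82 ± 0.998 to 30.5 ± 5.17 FPKM, and Ptpro, a receptor tyrosine phosphatase of the same cells, from 2.48 ± 0.364 to 8.42 ± 1.04. Magi2, a scaffold protein of the slit, was higher by the deposited values alone (0.36 as deposited, 0.14 rescaled). Of the 13 endothelial genes, 12 were called higher, with a median of 1.16 (0.81 rescaled). Tie1, an endothelial receptor, rose by 1.23 and Plvap, of fenestrated capillaries, by 1.22. Kdr, the main VEGF receptor, was higher by the deposited values alone (0.48 as deposited, 0.14 rescaled).

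Matrix genes were higher throughout the list: 27 of 27 were called higher, without overlap between the groups in any of them, with a median of 2.98. Col1a1, a chain of fibrillar collagen I (chr11:94936224-94953042, plus strand), read 1.80, 3.71, 1.56 and 1.77 FPKM in sham animals 1 to 4 and 63.2, 34.0, 75.6 and 40.8 FPKM in R2W animals 1 to 4. R2W animals 1 and 3 were the highest and sham animal 2 was the highest sham. The log2 fold change was 4.06 ± 0.24 (SE) (limma adjusted p = 9.7e-11). Col3a1, of fibrillar collagen III, read 4.76, 10.7, 4.26 and 5.96 FPKM in sham and 251, 116, 271 and 135 FPKM in R2W. Mgp, the matrix Gla protein that inhibits calcification, was among the most abundant, with 71.0, 128, 55.5 and 63.6 FPKM in sham and 2453, 1270.5, 2659.8 and 1577 FPKM in R2W. The same animals, R2W 1 and 3, were highest for both genes. Timp1, an inhibitor of metalloproteinases, rose from 0.838 ± 0.667 to 50.8 ± 27.6 FPKM (log2 fold change 4.73 ± 0.37 (SE), limma adjusted p = 1.7e-09). Against UUO7, 13 of the 27 were called lower in R2W and 1, the elastin gene Eln, higher (15.5 ± 2.40 FPKM at UUO7, 22.6 ± 4.14 in R2W, 16.7 ± 4.67 in R4W). Eln is named after its values were seen.

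All 9 measured fibroblast and myofibroblast genes were called higher, with a median of 2.09. Cdh11, a mesenchymal cadherin, rose from 0.72 ± 0.182 to 12.6 ± 4.47 FPKM, Postn (periostin) from 0.93 ± 0.946 to 10.1 ± 6.02, and Tagln, a smooth muscle actin-binding protein, from 22.5 ± 9.47 to 115 ± 29.9. Against UUO7, 1 of the 9 was called lower and none higher. Of 16 genes of TGF-beta and other growth factor signalling, 11 were called higher and 1 lower. The ligand gene Tgfb1 rose from 3.58 ± 1.03 to 18.5 ± 5.12 FPKM and Ctgf, a matricellular target of TGF-beta, from 16.1 ± 3.67 to 53.02 ± 15.9. Bmp7, an antifibrotic ligand made by the tubule, was the member called lower (13.1 ± 0.152 and 9.58 ± 1.02 FPKM, log2 fold change -0.42 ± 0.11 (SE), limma adjusted p = 0.0023). Cyr61 and Hbegf were not called on either scaling.

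Macrophage genes had the highest list median, 3.76, and all 16 measured members were called higher without overlap. Lyz2, the lysozyme of myeloid cells (chr10:117277331-117282321, minus strand), read 11.7, 24.97, 11.4 and 15.9 FPKM in sham and 1083, 402, 859.9 and 551 FPKM in R2W. R2W animals 1 and 3 were highest, and the log2 fold change was 5.38 ± 0.31 (SE) (limma adjusted p = 6.6e-11). C1qa, a chain of the first complement component made by macrophages, read 9.36, 17.9, 7.09 and 8.72 FPKM in sham and 388, 183, 349 and 212 FPKM in R2W. Adgre1, which encodes the surface marker F4/80, read 0.56, 0.94, 0.56 and 0.6 FPKM in sham and 49.5, 14.9, 19.9 and 14.4 FPKM in R2W. For this gene R2W animal 1 alone was high, and the other 3 lay close together. Against UUO7, 10.8% of all genes were called higher in R2W and 14% lower. Of the 16 macrophage genes 3 were called higher and none lower. They were Lyz2 (367 ± 56.7 FPKM at UUO7, 574 ± 119.9 in R1W, 724 ± 306 in R2W, 597 ± 187 in R4W), Mmp12, a macrophage elastase, and Gpnmb, a lysosomal glycoprotein of lipid-laden macrophages (0.945 ± 0.0614 FPKM at UUO7, 1.44 ± 0.429 in R1W, 4.36 ± 2.96 in R2W, 6.91 ± 2.75 in R4W). Mmp12 and Gpnmb are named after their values were seen.

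Genes of antigen presentation and dendritic cells were called higher in 11 of 11 measured members, with a median of 3.35. Cd74, the invariant chain of MHC class II, read 75.5, 117, 75.9 and 76.7 FPKM in sham and 1438, 1089, 1583 and 1233.8 FPKM in R2W. The R2W animals lay within a narrow band relative to their distance from sham (log2 fold change 3.95 ± 0.23 (SE), limma adjusted p = 6.1e-11). Ctss, the protease that trims the invariant chain, rose from 5.89 ± 1.82 to 206 ± 75.3 FPKM. Against UUO7, 1 of these 11 was called higher and none lower. Of 17 T and NK cell genes 13 had a row, and all 13 were called higher, with a median of 1.90 at low levels. Cd3g, of the T cell receptor complex, rose from 0.407 ± 0.0814 to 7.42 ± 1.71 FPKM and Trbc2 from 0.708 ± 0.298 to 13.3 ± 3.07. Such genes, under 1 FPKM in sham, have a row only through groups where they are higher, so the count of 13 is in part set by that filter. Of these 13, 5 were called higher than at UUO7 and 1 lower (the chemokine gene Ccl5).

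Antibody genes were also above sham. Igkc, the constant region of the kappa light chain (chr6:70726435-70726966, plus strand), read 13.0, 13.2, 16.0 and 22.3 FPKM in sham and 118, 78.3, 112 and 61.5 FPKM in R2W. The groups did not overlap, R2W animals 1 and 3 were highest, and the log2 fold change was 2.43 ± 0.33 (SE) (limma adjusted p = 2.3e-06). Igkc and Jchain were higher in R2W than at UUO7. Side by side, Igkc stood at 48.6 ± 15.9 FPKM at UUO7, 99.8 ± 25.4 in R1W, 92.6 ± 27.2 in R2W and 384 ± 189.7 in R4W. Of the 6 measured B and plasma cell genes 4 were called higher, and Mzb1 and Ighg2b were not on either scaling. Of 9 neutrophil genes 3 had a row, S100a8, S100a9 and Csf3r, and all 3 were called higher. Each averaged under 1 FPKM in sham and so had a row only through groups where it was higher. The count of 3 is therefore no separate result on neutrophil genes. S100a9, a calcium-binding protein of neutrophils and monocytes, read 0.51, 0.51, 0.79 and 1.02 FPKM in sham and 13.6, 2.14, 22.7 and 4.41 FPKM in R2W. R2W animals 1 and 3 were several-fold above 2 and 4.

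Most chemokine and chemokine receptor genes were also above sham. Of 18 chemokines and receptors, 16 were called higher and 1 lower, with a median of 2.496. Ccl8, a monocyte and T cell attractant, read 0, 2.64, 0.08 and 0.17 FPKM in sham and 34.6, 19.1, 54.7 and 25.7 FPKM in R2W, and Ccl6 rose from 1.51 ± 0.874 to 52.6 ± 16.4 FPKM. Ccl28, a mucosal chemokine, was the member called lower, with 5.94, 2.83, 10.1 and 10.2 FPKM in sham and 2.55, 3.28, 3.93 and 1.75 FPKM in R2W. Its groups overlapped through sham animal 2, which was low. Cxcl12 was higher by the deposited values alone (0.85 as deposited, 0.47 rescaled). Of 14 complement genes, 11 were called higher (10 without sham animal 2) and 1, the inhibitor gene Cd55, lower. C3, the central component, read 2.88, 7.48, 2.13 and 2.69 FPKM in sham and 129, 72.5, 208 and 116 FPKM in R2W (log2 fold change 4.81 ± 0.33 (SE), limma adjusted p = 3.6e-10). Sham animal 2 was the highest of its group and R2W animal 3 of the other. Serping1, an inhibitor of the first component, rose to 175 ± 49.5 FPKM, and Cfb, of the alternative pathway, was lower by the rescaled values alone (-0.21 as deposited, -0.60 rescaled).

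Interferon-response genes were called higher in 15 of 15, with a median of 2.09, and none differed from UUO7 by the same rule. Zbp1, a sensor of left-handed nucleic acid, rose from 1.15 ± 0.302 to 13.5 ± 2.05 FPKM, and Oasl2 from 4.82 ± 1.49 to 33.4 ± 6.84. The core of the interferon response element, searched as GAAA, any 2 bases and GAAA again, was present in 3.88% of the promoters of genes called higher, 2.46% of those called lower, 2.14% of those tested and not called, and 2.98% of all. An AP-1 motif, TGANTCA, had shares of 5.88%, 4.38%, 4.10% and 6.75% in the same order. The windows are the 250 bases before each RefSeq start (GRCm38.p6), 32851 in all, of which 13597 matched 10662 measured genes (4352 of genes called higher, 1827 lower and 7418 not called). Both strands were searched, the motifs and genes were chosen with the shares and values known, and a match is a description, not a bound site. The promoters of Ctss (chr3:95526536-95526785, plus strand) and of the interferon-induced gene Ifit1 (chr19:34640639-34640888, plus strand) show the motif in a gene of antigen presentation and in one of the list above. Capitals mark this core or its reverse complement.
Ctss: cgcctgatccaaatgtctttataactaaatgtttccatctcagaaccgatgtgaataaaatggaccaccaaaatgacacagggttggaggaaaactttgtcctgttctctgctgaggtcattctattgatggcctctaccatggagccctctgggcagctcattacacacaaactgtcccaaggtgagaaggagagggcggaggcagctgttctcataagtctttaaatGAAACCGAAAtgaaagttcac
Ifit1: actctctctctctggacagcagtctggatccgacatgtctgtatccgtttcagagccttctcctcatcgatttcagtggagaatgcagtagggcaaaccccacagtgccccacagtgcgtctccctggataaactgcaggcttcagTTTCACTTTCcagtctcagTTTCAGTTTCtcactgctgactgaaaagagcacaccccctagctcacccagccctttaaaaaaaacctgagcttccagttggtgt

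Most cell division genes were above sham and below UUO7. Of 17 measured, 15 were called higher than sham and none lower, with a median of 1.24, and 13 were called lower than UUO7 and 1 higher. Mki67, the proliferation marker Ki-67, read 0.4, 0.38, 0.34 and 0.4 FPKM in sham and 3.88, 1.86, 2.92 and 2.23 FPKM in R2W, compared with 5.25 ± 0.861 at UUO7. The groups did not overlap (log2 fold change 1.40 ± 0.18 (SE), limma adjusted p = 8.6e-07). Top2a, a topoisomerase of dividing cells, rose from 1.31 ± 0.291 to 9.68 ± 2.61 FPKM. Ccnd1, the cyclin of early G1 phase, was the member above UUO7 (log2 fold change 0.54, limma adjusted p = 0.0016) and was not called against sham (0.25 as deposited, -0.13 rescaled). Tyms was higher than sham by the deposited values alone (0.40 as deposited, 0.03 rescaled). Cdkn1a, the p21 inhibitor of cell cycle kinases, read 2.44, 6.53, 2.72 and 3.52 FPKM in sham and 30.5, 13.4, 29.9 and 19.9 FPKM in R2W, with R2W animals 1 and 3 highest. Of the 9 measured p53 and cell cycle arrest genes 4 were called higher, where 31.1% of all genes were, with a median of 0.65 (0.27 rescaled). On the deposited values alone 6 were higher, and on the rescaled values alone 4 were higher and 2 lower. Gadd45a was higher by the deposited values alone (0.65 as deposited, 0.27 rescaled), and Ccng1 was below sham in every R2W animal and lower by the rescaled values alone (-0.25 as deposited, -0.64 rescaled). Of 14 immediate-early genes 8 were called higher, led by Klf6 (2.19), Atf3 (2.09) and Junb (2.00), and Jund and Ier3 were higher by the deposited values alone (Jund 0.64 as deposited, 0.25 rescaled, Ier3 0.65 as deposited, 0.27 rescaled).

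Lists of tissue that can come with a dissected kidney were read for comparison. No red cell gene was called by limma, and 0 of 5 had an unadjusted p under 0.05. Hbb-bs, a globin gene, had 207 ± 63.8 and 202 ± 33.0 FPKM. Among the adipose genes likewise 0 of 5 were called, with 0 at an unadjusted p under 0.05, and Adipoq was at most 0.04 FPKM in R2W. Of 6 urothelial genes 5 were called higher (6 without sham animal 2), although the groups overlapped for each through sham animal 2. Krt5, a basal keratin, read 0.03, 3.79, 0.08 and 0.14 FPKM in sham and 15.9, 3.51, 9.86 and 8.56 FPKM in R2W, and Upk3a, a uroplakin of the umbrella cells, 0.29, 10.2, 0.45 and 0.81 and 25.3, 5.04, 13.0 and 9.28. The part of urothelial tissue in the epithelial results, among them the keratins of the injured tubule list, was not tested. Without sham animal 2, 298 in place of 303 of the 390 measured list genes were called.

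Against UUO7 as a whole, 1592 genes (10.8%) were called higher in R2W and 2064 (14%) lower. The count of 3656 in all rests in part on single libraries: it was 2302 without R2W animal 4 and 2308 without UUO7 animal 3. To place each library between the 2 states, its rescaled log2 profile was projected onto the line from the sham mean (0) to the UUO7 mean (1), a line that R2W took no part in drawing. R2W animals 1 to 4 stood at 0.84, 0.56, 0.83 and 0.63. The 4 R1W animals lay between 0.693 and 0.887 and the 4 R4W animals between 0.486 and 0.679, and the R2W animals overlapped both ranges. The means were 0.791 ± 0.0921 in R1W, 0.714 ± 0.139 in R2W and 0.611 ± 0.0882 in R4W (SD, n = 4), and differences among these 3 groups were not tested. R4W animal 2 carries a treatment label of 2 weeks and was kept in R4W by its title.

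**Figure D3:**
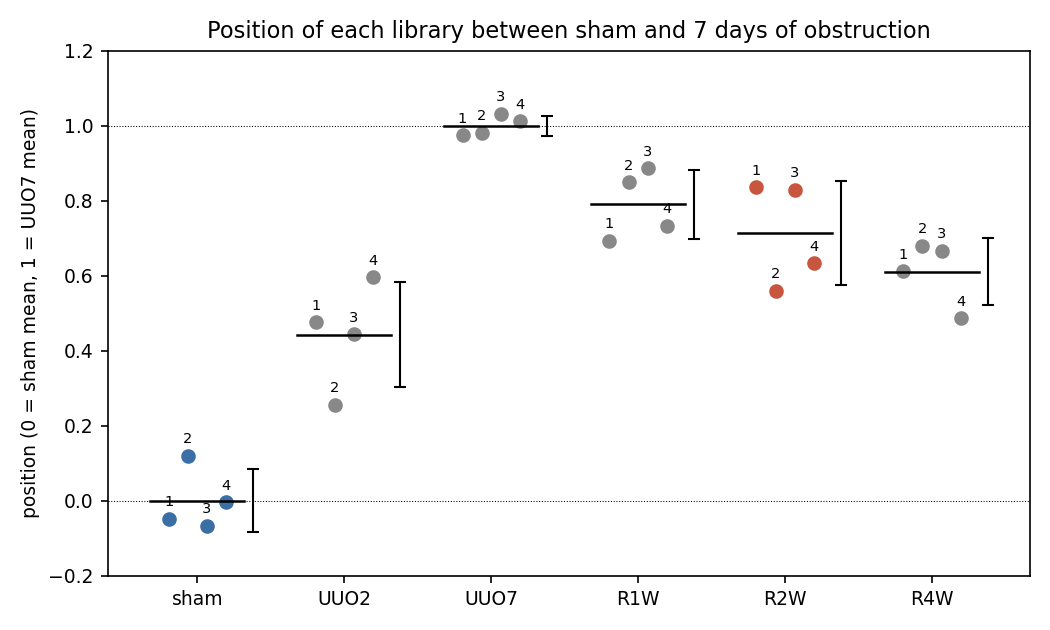
Position of each of the 24 libraries on the line from the sham mean (0) to the mean of 7 days of obstruction (1), from rescaled log2(FPKM + 1) over all genes, numbered by replicate, with group mean (line) and SD (bar). R2W animals 1 and 3 sit at 0.84 and 0.83 and animals 2 and 4 at 0.56 and 0.63.

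The 4 R2W animals differed from each other in a shared order. On rescaled values, over the 3151 called genes that averaged 10 FPKM or more, animal 2 was nearest to the sham mean in 69.9% and animal 4 in 23.0%, while animal 1 was farthest in 51.7% and animal 3 in 43.9%. By the mean level of each list as deposited, animal 2 was nearest for 24 of 30 lists while animal 1 was farthest for 17 and animal 3 for 12. After rescaling these counts were 25, 16 and 13. The injured tubule list stood at 6.29, 5.76, 6.68 and 6.09 in R2W animals 1 to 4 (mean log2(FPKM + 1)), with sham animals between 3.14 and 3.97. Proximal tubule transport stood at 5.85, 6.50, 5.75 and 6.37, with sham between 7.06 and 7.32. Animals with more of the injury genes thus had less of the transport genes. Macrophage genes stood at 5.80, 4.58, 5.57 and 4.92 and neutrophil genes at 3.65, 1.53, 3.93 and 2.23, in which animal 2 was again the lowest. Intercalated cell genes split the same pairs, with 4.28, 4.85, 4.33 and 4.85 against a sham range of 4.55 to 4.68, so that as deposited animals 2 and 4 were above every sham animal and animals 1 and 3 below. After rescaling R2W stood at 4.11, 4.86, 4.19 and 4.79 and sham between 4.87 and 4.92, so that all 4 were then below every sham animal. Implied depth followed a similar order (25200000, 35300000, 28000000 and 31000000 fragments in animals 1 to 4), as did the mitochondrial share of the summed FPKM (8.17%, 11.1%, 8.54% and 10.9%, with sham between 14.0% and 14.6%), and their part in the order was not tested.

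**Figure D4:**
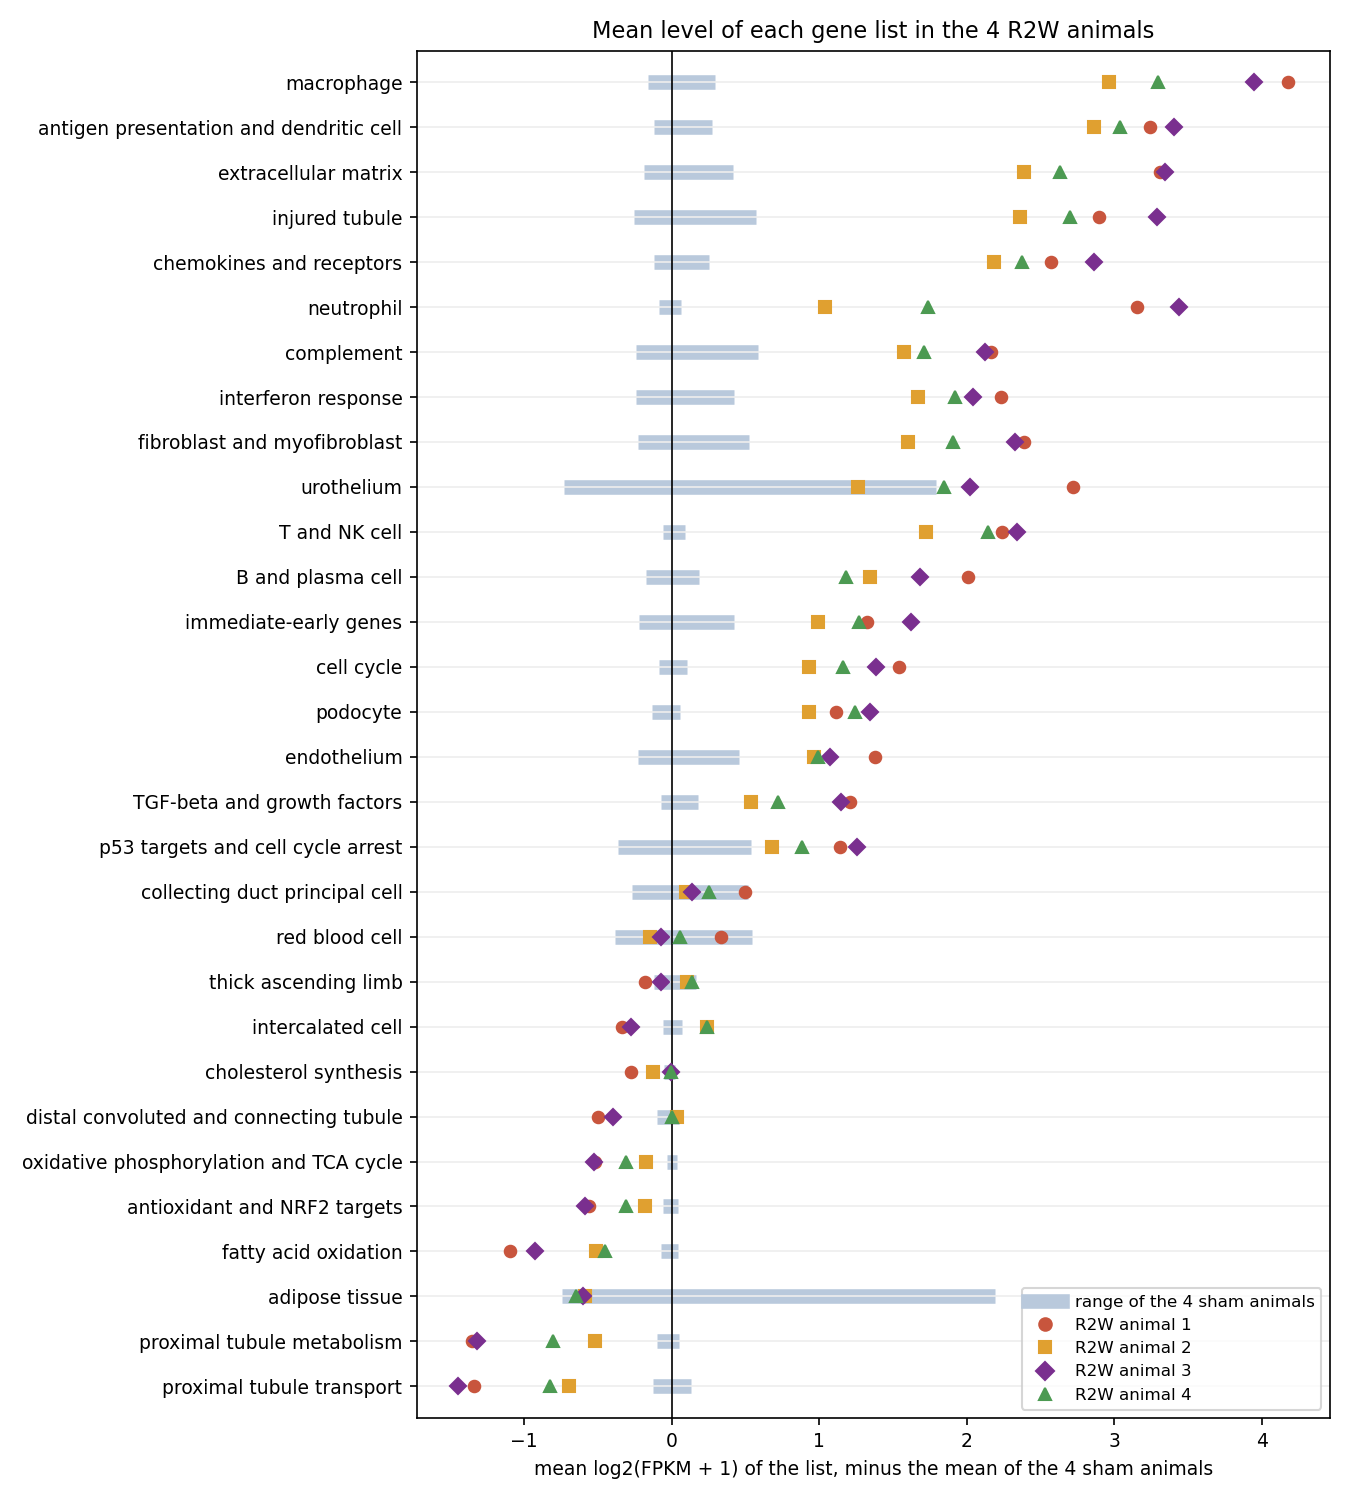
Mean log2(FPKM + 1) of each gene list in each R2W animal (symbols), minus the mean of the 4 sham animals, with the range of the sham animals as a pale bar and lists in the order of their median fold change. Animal 2 is nearest to the sham mean in 24 of 30 lists, and the sham range is wide for adipose tissue and urothelium.

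R2W animals also varied more than sham animals. Of 7439 genes that averaged 10 FPKM or more in the 8 libraries, 71.3% had a larger SD of log2(FPKM + 1) in R2W than in sham, 66.0% after rescaling, and the median SD was 0.149 against 0.0973. Leaving out 1 animal moved this share between 62.3% and 82.4%, with the latter found without sham animal 2. Median SDs in the other groups were 0.147 (UUO2, 2 days of obstruction), 0.114 (UUO7), 0.170 (R1W) and 0.103 (R4W). Among genes that averaged 10 FPKM or more in R2W, whatever their level in sham, those with the largest excess of SD in R2W were Mir142b, Mir6363, Mir8097, Fcrls, S100a9, Mmp7, Col12a1 and Prkcb. Genes chosen in this way that are near 0 in sham have little room for spread there, so their excess is a description. The first 3 are microRNA entries of 114 to 119 bp that were listed at 0 in at least 1 R2W animal and were not called, for example Mir142b with 28.4, 0, 24.3 and 0 FPKM. Fcrls, a macrophage Fc receptor-like gene, read 0.1, 0.21, 0.09 and 0.11 FPKM in sham and 63.3, 12.9, 14.3 and 10.2 FPKM in R2W. Prkcb, a protein kinase C of leukocytes, read 25.03, 5.37, 8.55 and 5.22 FPKM in R2W. Both were high in R2W animal 1 alone, as Adgre1 was. Col12a1, a fibril-associated collagen, read 54.0, 10.8, 39.5 and 15.0 FPKM in R2W, high in animals 1 and 3.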

How the data were processed

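The 8 libraries of this comparison come from a table of the whole series with 24 libraries in 6 groups of 4, each library placed in its group by its title. The submitters' processing notes name FastQC, Bowtie2, RSEM and DESeq2 and the build mm10, without versions, and the order of steps is not given in the sources used here. The authors deposited 1 value per gene and library whose unit no header states: it was taken as FPKM because column sums ran from 717415 to 830179, and their highest-to-lowest ratio of 1.157 dropped to 1.077 when values were weighted by transcript length. Every gene has a mean of at least 1 over the 24 libraries, and 19 gene names are written as dates. Implied depths were inferred from the steps between low values, so counting error is only roughly known. The authors also deposited log2 fold changes, with base and direction inferred from the library values, and adjusted p-values, whose test no header states.

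From the FPKM values, limma (version 3.58.1, under R version 4.3.3, with a trended prior variance) was fitted to log2(FPKM + 1) of all 24 libraries with 6 group means, on deposited and on median-ratio rescaled values (14402 genes set the factors). A call needed a Benjamini-Hochberg adjusted p under 0.05 over all 14785 genes on both, with the same sign. The values are not counts, so no count test was run. On simulated data for R2W against sham with all 14785 genes, 193 of 200 changed genes and 9 unchanged genes were called. Only those 200 genes were changed there, in either direction, and the other genes had no shift between groups. Far more genes differed in the real data, so the simulation does not give the error rate of the calls reported here. Positions, list means and promoter searches used Python 3.11.15, pandas 2.3.3, numpy 2.4.6 and scipy 1.17.1.

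Named genes are the 12 called genes of largest change in each direction with a mean of at least 10 and no overlap, in each list up to 3 called members per direction and up to 2 abundant members that were not called, a set of genes shown for every animal, and the 8 genes with the largest excess of SD in R2W. Clone and model names, ribosomal, mitochondrial and immunoglobulin segment genes were left out of the ranked sets. Members and lists were chosen with earlier results of these data known. Alternatives covered scaling, pseudocount, a filter on the mean, the libraries in the fit, thresholds, a replicate block and each animal left out. R4W animal 2 carries a treatment label of 2 weeks against a title of 4 weeks. It was kept in R4W by its title. Some genes that this rule names are not reported here.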

Additional observations from a re-analysis of the deposited data

Results flagged for a closer look

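In the per-animal genes and list means of sham and R2W, 114 groups of 4 animals were checked for 1 animal whose gap to the next exceeded Dixon's 95% critical value. Chance alone gives about 1 in 20 such groups. Of the 17 found, 13 were sham animal 2. These genes and lists were chosen. Single genes were checked on FPKM and lists on mean log2(FPKM + 1). Over all 7439 genes that averaged 10 FPKM or more, Dixon's check was run on rescaled log2(FPKM + 1). These counts and those above are therefore not directly comparable. It found 566 in sham, of which 416 were sham animal 2, and 325 in R2W, which is under 1 in 20 for R2W.

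In R2W, Spp1 was 6757.9 FPKM in animal 3 against at most 4036 in the others, and Umod was 1488.5 FPKM in animal 1 against at least 1776. Aqp2 (348.0 FPKM against at most 181) and Adgre1 (49.5 FPKM against at most 19.9) were high in animal 1. On rescaled log2(FPKM + 1), the check in R2W found no animal apart for any of the 16 measured macrophage genes, Adgre1 included.

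Sham animal 2 was high for Spp1 (718.5 FPKM), Col1a1 (3.71), Adgre1 (0.94), Cd74 (117.0) and C3 (7.48), and low for Slc7a13 (296.0). Its mean log2(FPKM + 1) was high for the fibroblast and myofibroblast list (2.47 against at most 1.83), extracellular matrix (2.66 against 2.12), TGF-beta and growth factors (2.78 against 2.55) and antigen presentation (3.30 against 2.96). The same held for complement (3.26 against 2.51), adipose tissue (4.13 against 1.24) and urothelium (2.85 against 0.57). Without this animal 6395 genes in place of 6500 were called between R2W and sham.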

How the results depend on the processing

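Calls between R2W and sham, 6500 in all, numbered 10204 on deposited values alone, 1765 when a change of 1 or more on the log2 scale was required, 3347 and 1127 with a mean of at least 10 and 50 (fewer genes tested), and 5787 to 6585 with 1 animal left out. Calls against UUO7, 3656 in all, numbered 1716 at an adjusted p under 0.01, 358 with such a minimum change, 1004 with a mean of at least 50, and 2302 to 3519 with 1 animal left out. List members called, 303 in all, ranged from 290 to 305 with 1 animal left out. The share of genes with a larger SD in R2W, 71.3%, was 66.0% rescaled, 79.3% at a mean of at least 50, and 62.3% to 82.4% with 1 animal left out. With R4W animal 2 placed in R2W, 6656 genes were called against sham.

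Same-numbered R2W and sham animals did not deviate together (r of -0.35, -0.39, -0.08 and 0.19), so the numbers were not treated as pairs. With a replicate block 6443 genes were called against sham and 3554 against UUO7.

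Of 150 named genes, 23 lost a call or changed sign under at least 1 alternative, and the cause was not tested. Signs changed for genes that were not called. On rescaled values the log2 fold change was -0.37 for Umod, -0.37 for Itgb6, -0.12 for Atp6v1b1, -0.31 for Rhcg, -0.25 for Hbegf, -0.18 for Mzb1, -0.13 for Ccnd1, -0.26 for Srxn1 and -0.34 for Hba-a2. With R4W animal 2 in R2W it was -0.10 for Itgb6, 0.0049 for Slc13a1, 0.011 for Calb1 and -0.037 for Hba-a2. With a pseudocount of 10 Mir8097 stood at 0.12. With 1 animal left out the range spanned 0 for Umod (-0.0042 to 0.089), Aqp2 (-0.36 to 0.30), Mir8097 (-0.99 to 0.85), Itgb6 (-0.040 to 0.073), Slc13a1 (-0.15 to 0.053), Calb1 (-0.19 to 0.075), Rhcg (-0.025 to 0.20), Hbegf (-0.028 to 0.20), Cfd (-2.06 to 0.099), Sqle (-0.12 to 0.036), Adipoq (-1.25 to 0.0035), Hbb-bs (-0.16 to 0.18) and Hba-a2 (-0.12 to 0.29). Only 4 animals a group, an inferred unit and a sham time not given limit these values.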
